A study of Mus musculus with 45 samples.

Results

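The helix-loop-helix partners and inhibitors of MyoD were followed through the conversion of mouse fibroblasts to muscle cells: Id1, Id2, Id3, Id4, Tcf3, Tcf4, Tcf12, Msc, Bhlhe41 and Hes6. These 10 genes of the 35675 summed were chosen by name for their known part in MyoD's partner network, with earlier results of these data known. MyoD is a basic helix-loop-helix (bHLH) transcription factor that binds the short DNA motif CANNTG, the E-box, only after pairing with an E protein. The E proteins are encoded by Tcf3 (the forms E12 and E47), Tcf4 (E2-2) and Tcf12 (HEB). Id proteins have the helix-loop-helix but no basic region, so an E protein paired with an Id cannot bind DNA. Msc (musculin, or MyoR) and Bhlhe41 (Sharp1, or DEC2) are bHLH repressors that were described as inhibitors of MyoD, and Hes6 is a Hes-family protein known as an early target of MyoD that favours muscle differentiation.

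The cells came from mice of the genotype Tg:Pax7-nGFP/C57BL6;DBA2, whose nuclear GFP marks Pax7, the transcription factor of muscle stem cells. Mouse embryonic fibroblasts (MEFs) with a doxycycline-inducible MyoD were sampled untreated and after 2, 4, 6, 8 and 10 days of doxycycline, either alone (MyoD alone, which yields myotubes) or with the small molecules F/R/C (which yields fibres and induced myogenic progenitor cells, iMPCs). The references were bulk iMPCs kept in F/R/C medium after 13 days of doxycycline with F/R/C, Pax7-GFP+ iMPCs purified by sorting, untreated bulk primary myoblasts from skeletal muscle, and sorted Pax7-GFP+ myoblasts. Each of the 15 groups had 3 poly-A RNA-seq libraries; the labels do not say whether these came from separate cultures or animals, so the p-values measure the spread between these libraries, which may be technical. The labels give the treatment letters without a dose or a mouse age; in the published protocol for iMPCs they stand for forskolin, which raises cyclic AMP, RepSox, which blocks the TGF-beta receptor kinase, and an inhibitor of GSK3. Reads from the MyoD transgene and from endogenous Myod1 cannot be told apart here, and every induced library carries the transgene. In bulk RNA, fewer cells of a type and less RNA per cell cannot be told apart.

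Library totals ran from 15.6 M to 36.3 M reads (median 22.1 M). Levels are given in counts per M reads (CPM) after TMM scaling, in the order of replicates 1, 2 and 3. Myod1 stood at 8.84, 1.07 and 0.761 CPM in MEFs and at 1998, 3575 and 2303 CPM after 2 days of doxycycline. Replicate 1 of the MEFs also held 6.90 CPM of Myog, where the other 2 had no read. Pax7 was at most 1 read in MEFs, 263 to 351 CPM in sorted iMPCs, 349 to 813 CPM in sorted myoblasts, 39.3 to 81.3 CPM in bulk iMPCs and 47.1 to 75.7 CPM under F/R/C on day 10. All 10 fibroblast markers were above 3 reads in MEFs, but so were all 10 differentiated-muscle markers. By summed level, the fibroblast markers stood at 10277 to 14430 CPM in MEFs and the differentiated-muscle markers at 51.9 to 153 CPM. Replicate 3 of the bulk myoblasts stood apart, with 59.8 CPM of Myog against 888 and 619 CPM and a summed level of 10 differentiated-muscle markers of 1083 CPM, where the highest of the 3 libraries had 31863 CPM. Of 6 macrophage markers 2 to 5 exceeded 3 reads in a group, and of 6 epithelial markers 2 to 4; Adgre1, Krt5 and Krt14 did so in no group, and the glial gene Sox10 only in bulk iMPCs.

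All 10 genes passed the filter on low counts. Msc passed it only through groups with F/R/C or of iMPCs, where it was high. Its reads per group were 2 in MEFs, at most 11 with MyoD alone, and 7 and 21 in bulk and sorted myoblasts. A gene was called where the adjusted p of edgeR's quasi-likelihood test was under 0.05 and the log2 fold change was at least 1 in size; every error of a log2 fold change is a standard error (SE). After 2 days of MyoD alone, 4 of the 10 genes were higher than in MEFs (Id1, Id2, Bhlhe41 and Hes6) and none was lower, where 22.4% of the 17325 genes tested were called. On day 10 only Bhlhe41 and Hes6 were still called, so 2 of the 10 against 18.9% of all genes. With F/R/C, 6 of the 10 were higher than in MEFs on day 2 (all 4 Id genes, Bhlhe41 and Hes6; 20.4% of all genes were called). On day 10 with F/R/C, 4 of the 10 were higher (Id2, Id4, Msc and Hes6), a share close to the 34.8% of all genes. These 4 comparisons share the same 3 MEF libraries. The median log2 fold change over the 10 genes was 1.47 on day 2 of MyoD alone and 1.46 on day 2 with F/R/C, and the median over all genes tested was 0 in both.

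Between the treatments on the same day, Id4 was higher and Bhlhe41 lower with F/R/C on day 2, which is 2 of the 10 genes against 4.93% of all genes. Day 4 had 2 calls, both higher with F/R/C (Id2 and Id4; 13.2% of all genes), and day 6 had 4, with Id2, Id4 and Msc higher and Bhlhe41 lower (15.4% of all genes). Day 8 had the same 4 and Tcf4, so 5 of the 10 (18.7% of all genes), and day 10 had 4, without Tcf4 (23.3% of all genes). Averaged over the 5 days, Id2, Id4 and Msc were higher and Bhlhe41 lower with F/R/C, 4 of the 10 against 22.1% of all genes. This average takes the 15 libraries of each treatment as independent, although same-numbered libraries were correlated between some days and treatments. The adjusted p-values given for the 5 days do not allow for this. From day 2 to day 10 of MyoD alone, Id1, Id2 and Hes6 fell (3 of the 10; 6.26% of all genes). With F/R/C over the same time, Id1, Id2, Bhlhe41 and Hes6 fell and Msc rose (5 of the 10; 16% of all genes). The change of the F/R/C effect from day 2 to day 10 was called for Msc, 1 of the 10 genes against 6.01% of all genes. Of the falls with F/R/C, that of Id2 (-1.12) was lost under 4 of 7 alternatives of the fit and without 5 of the 6 libraries in turn, with -0.65 and adjusted p = 0.314 without replicate 3 of day 10. That of Bhlhe41 was lost under 3 alternatives and without 4 of the 6 libraries, replicates 1 and 2 of either day (adjusted p up to 0.187).

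Marker sums differed between the treatments as well. The summed level of 10 proliferation markers was 292 to 1105 CPM in the 15 libraries with F/R/C and 48.2 to 470.4 CPM in the 15 of MyoD alone, with ranges apart on days 4 to 10. That of 10 fibroblast markers was 1120 to 5784 CPM with F/R/C and 2992 to 11296 CPM with MyoD alone. The 6 macrophage markers summed to 11.3 to 23.6 CPM against 6.97 to 12.7 CPM, and the 6 epithelial markers to 4.92 to 31.2 CPM against 2.63 to 15.99 CPM. Adgre1, Epcam, Krt5 and Krt14 were at or below 3 reads in every library of both treatments, so these sums rest on the other genes listed. The smooth-muscle markers summed to 2995 to 6854 CPM with F/R/C against 4064 to 9959 CPM, and the endothelial markers to 1.24 to 5.36 CPM against 1.74 to 8.05 CPM. The part of cell composition or of cell division in the differences between treatments was not tested.

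Among the established cells, bulk iMPCs had less Id1, Id3 and Tcf3 and more Bhlhe41 than day 10 with F/R/C (4 of the 10; 9.57% of all genes). Against bulk myoblasts, bulk iMPCs had more Id4 and Msc and less Id1, Id2, Id3, Tcf3 and Hes6, so 7 of the 10 (19.6% of all genes). Sorted Pax7+ iMPCs had more Id3, Id4, Tcf3, Tcf4 and Msc and less Bhlhe41 and Hes6 than sorted Pax7+ myoblasts, again 7 of the 10 (30% of all genes). They had more Id3, Tcf3 and Msc and less Id4, Bhlhe41 and Hes6 than bulk iMPCs (6 of the 10; 30.3% of all genes). Sorted myoblasts had less Id1, Id3 and Id4 than bulk myoblasts (3 of the 10 against 6.23% of all genes). With only these groups in the fit, all 3 calls were lost (adjusted p = 0.431 to 0.464, edgeR quasi-likelihood test). In that fit 0 in place of 1080 genes were called in all. Effective transcript lengths were computed differently in the 6 sorted libraries, so the setting and the sort cannot be told apart in comparisons of sorted with bulk cells.

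The Id genes form the inhibitor side of the network. Id1 (chromosome 2) is a classical target of BMP signalling. It stood at 16.7, 38.8 and 38.5 CPM in MEFs, 118, 120.0 and 126 CPM after 2 days of MyoD alone and 143, 142 and 140.1 CPM after 2 days with F/R/C. The 6 day 2 libraries were all above the 3 MEF libraries, and the log2 fold changes were 1.96 ± 0.34, adjusted p = 3.68e-05, for MyoD alone and 2.18 ± 0.34, adjusted p = 9.56e-06, with F/R/C. By day 10 the level had come down to 67.3, 47.7 and 38.7 CPM with MyoD alone and 77.7, 51.8 and 38.4 CPM with F/R/C, log2 changes from day 2 of -1.25 ± 0.33, adjusted p = 0.0136, and -1.34 ± 0.33, adjusted p = 0.0034. Every day 10 library of either treatment was below every day 2 library. The call with MyoD alone was lost without replicate 2 (adjusted p = 0.0599) or 3 (adjusted p = 0.0800) of day 10, and that with F/R/C without replicate 3 of day 10 (adjusted p = 0.0546). F/R/C made no called difference to Id1 on any of the 5 days, and the average log2 difference was 0.26 ± 0.15 with a 95% interval from -0.03 to 0.55.

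The lowest Id1 means were those of bulk iMPCs, sorted myoblasts and sorted iMPCs, and each of their ranges overlapped that of the MEFs. Bulk iMPCs had 18.8, 13.6 and 14.4 CPM, sorted iMPCs 25.6, 41.6 and 19.7 CPM and sorted myoblasts 20.6, 12.5 and 28.2 CPM, while bulk myoblasts had 82.5, 41.8 and 119 CPM. The bulk iMPC libraries were all below the bulk myoblast libraries, with a log2 fold change of -2.38 ± 0.35, adjusted p = 5.44e-06. Of the 14 pairs of neighbours in the order of group means, 12 had overlapping ranges; only day 2 with F/R/C stood clear above day 2 of MyoD alone, and the latter clear above day 4 with F/R/C.

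Id3 (chromosome 4), another BMP-responsive Id gene, had the largest share of Id transcripts per length in MEFs, where it made up 63.2 ± 2.10% (SD, n = 3) of the summed TPM of Id1 to Id4. Its CPM levels were 62.7, 102 and 108 in MEFs, 191, 161 and 187 on day 2 of MyoD alone and 246, 219.9 and 254 on day 2 with F/R/C. Both day 2 groups lay above the MEF range. The log2 fold change against MEFs was called with F/R/C (1.40 ± 0.35, adjusted p = 0.0021) and fell just short of the fold threshold with MyoD alone (0.98 ± 0.34, adjusted p = 0.0242); the difference between the treatments on day 2, 0.42 ± 0.34, adjusted p = 0.513, was not called. Sorted iMPCs had 143, 208 and 120.3 CPM of Id3, against 89.1, 47.5 and 43.6 CPM in sorted myoblasts and 44.4, 37.1 and 48.8 CPM in bulk iMPCs. All sorted iMPC libraries were above both of these groups, by 1.38 ± 0.35, adjusted p = 0.0014, and 1.85 ± 0.35, adjusted p = 6.86e-05. The bulk myoblasts were uneven, at 168, 77.8 and 299.7 CPM, with replicate 3 the highest. Without that library, bulk iMPCs were still lower in Id3 (-1.50, adjusted p = 0.0017). In the order of the 15 group means, the ranges of all 14 neighbouring pairs overlapped.

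Id2 (chromosome 12) encodes a protein that, like the other Id proteins, binds E proteins. Its promoter is shown because Id2 is the only Id gene whose window, from 250 bases before to 50 after the RefSeq start, held an E-box. Capitals mark CAGCTG, the E-box form that MyoD with an E protein is known to favour, on a minus-strand window of GRCm38.p6 at chr12:25096043-25096342.
Id2 promoter: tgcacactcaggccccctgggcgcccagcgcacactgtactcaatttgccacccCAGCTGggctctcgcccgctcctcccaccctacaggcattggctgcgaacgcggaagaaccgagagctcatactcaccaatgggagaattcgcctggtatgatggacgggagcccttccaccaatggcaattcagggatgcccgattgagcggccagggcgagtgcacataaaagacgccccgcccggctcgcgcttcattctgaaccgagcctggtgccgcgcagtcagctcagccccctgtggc

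The motif began at position -196 relative to the start. CAGCTG was present in 16.3% of the 32851 RefSeq promoter windows, and any CANNTG in 72.3%. The windows of Id3 and Id4 held no CANNTG; no window for Id1 was used here. Id2 CPM levels were 15.3, 17.3 and 14.6 in MEFs, 68.6, 69.4 and 98.4 on day 2 of MyoD alone and 94.8, 89.8 and 100.2 on day 2 with F/R/C. The log2 fold changes against MEFs were 2.32 ± 0.43, adjusted p = 8.95e-05, and 2.59 ± 0.44, adjusted p = 2.66e-05. With MyoD alone Id2 was back at 21.9, 12.4 and 21.05 CPM on day 4 and 26.5, 21.5 and 11.6 CPM on day 10, around the MEF level. With F/R/C it was 48.6, 41.8 and 35.8 CPM on day 4, 44.7, 52.3 and 36.5 CPM on day 6, 65.05, 67.8 and 20.6 CPM on day 8 and 67.6, 42.8 and 20.8 CPM on day 10.

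On days 4 and 6 the 3 libraries with F/R/C were all above the 3 with MyoD alone, and on days 8 and 10 replicate 3 with F/R/C lay within the MyoD range. The log2 differences were 1.19 ± 0.42, adjusted p = 0.0379, on day 4, 1.37 ± 0.42, adjusted p = 0.0155, on day 6, 1.45 ± 0.42, adjusted p = 0.0086, on day 8 and 1.14 ± 0.42, adjusted p = 0.0286, on day 10, with 1.08 ± 0.19, adjusted p = 7.75e-06, over the 5 days. The day 4 call was lost whichever single library was left out, with adjusted p up to 0.168. The day 6 call was lost without replicate 2 or 3 of MyoD alone or replicate 2 with F/R/C (adjusted p up to 0.0578), and the day 8 call without replicate 3 of MyoD alone (adjusted p = 0.0540) and with only the groups compared (adjusted p = 0.0542). Without replicate 1 of day 10 with F/R/C, the day 10 difference was 0.68 (adjusted p = 0.243), the average over days 0.99, just under the fold threshold, and the difference of day 10 from MEFs 1.01 (adjusted p = 0.0578). The day 10 call was also lost without replicate 3 of MyoD alone and with only the groups compared. Bulk myoblasts had the highest group mean, 94.99 ± 23.01 CPM (SD, n = 3), and MEFs the lowest, 15.7 ± 1.39 CPM. The lower Id2 of bulk iMPCs than of bulk myoblasts (-1.26) was lost without replicate 3 of the myoblasts or replicate 1 or 2 of the iMPCs (adjusted p up to 0.0888).

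Id4 (chromosome 13), the least abundant of the 4, had the largest response to F/R/C among the Id genes. It was 1.41, 3.48 and 6.91 CPM in MEFs and 4.91, 4.59 and 4.50 CPM on day 2 of MyoD alone, against 25.6, 14.3 and 17.4 CPM under F/R/C on day 2. On each of the 5 days all 3 libraries with F/R/C were above all 3 with MyoD alone: over the days the former ran from 6.23 to 25.6 CPM and the latter from 1.22 to 4.91 CPM. The log2 difference was 2.03 ± 0.51, adjusted p = 0.0109, on day 2 and 2.22 ± 0.52, adjusted p = 0.0011, on day 10, and 2.33 ± 0.23, adjusted p = 4.34e-10, over the 5 days. It did not differ detectably between day 10 and day 2 (95% interval of the change in the difference, -1.20 to 1.56). Without replicate 2 of MyoD alone the day 2 call was lost (adjusted p = 0.0519). The call of more Id4 on day 10 with F/R/C than in MEFs, 1.80, was lost with only the groups compared (adjusted p = 0.0572), and the value was 2.47 without replicate 3 of the MEFs.

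The established cells split on Id4. Bulk iMPCs had 14.5, 3.02 and 13.3 CPM, 2 libraries in the range of the F/R/C time course and replicate 2 well below it. Sorted iMPCs had 1.78, 3.19 and 1.40 CPM, bulk myoblasts 2.51, 5.31 and 2.07 CPM and sorted myoblasts 0.530, 0.282 and 0.652 CPM. Sorted iMPCs exceeded sorted myoblasts without overlap (2.14 ± 0.57, adjusted p = 0.0025) but were lower than bulk iMPCs (-2.27 ± 0.52, adjusted p = 0.000656). The higher level of bulk iMPCs over bulk myoblasts, 1.63 ± 0.51, adjusted p = 0.0131, rested on overlapping ranges and was lost with only the groups compared (adjusted p = 0.172) and without any 1 of 4 of the 6 libraries, among them replicate 3 of the bulk myoblasts (1.38, adjusted p = 0.0748).

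**Figure D1:**
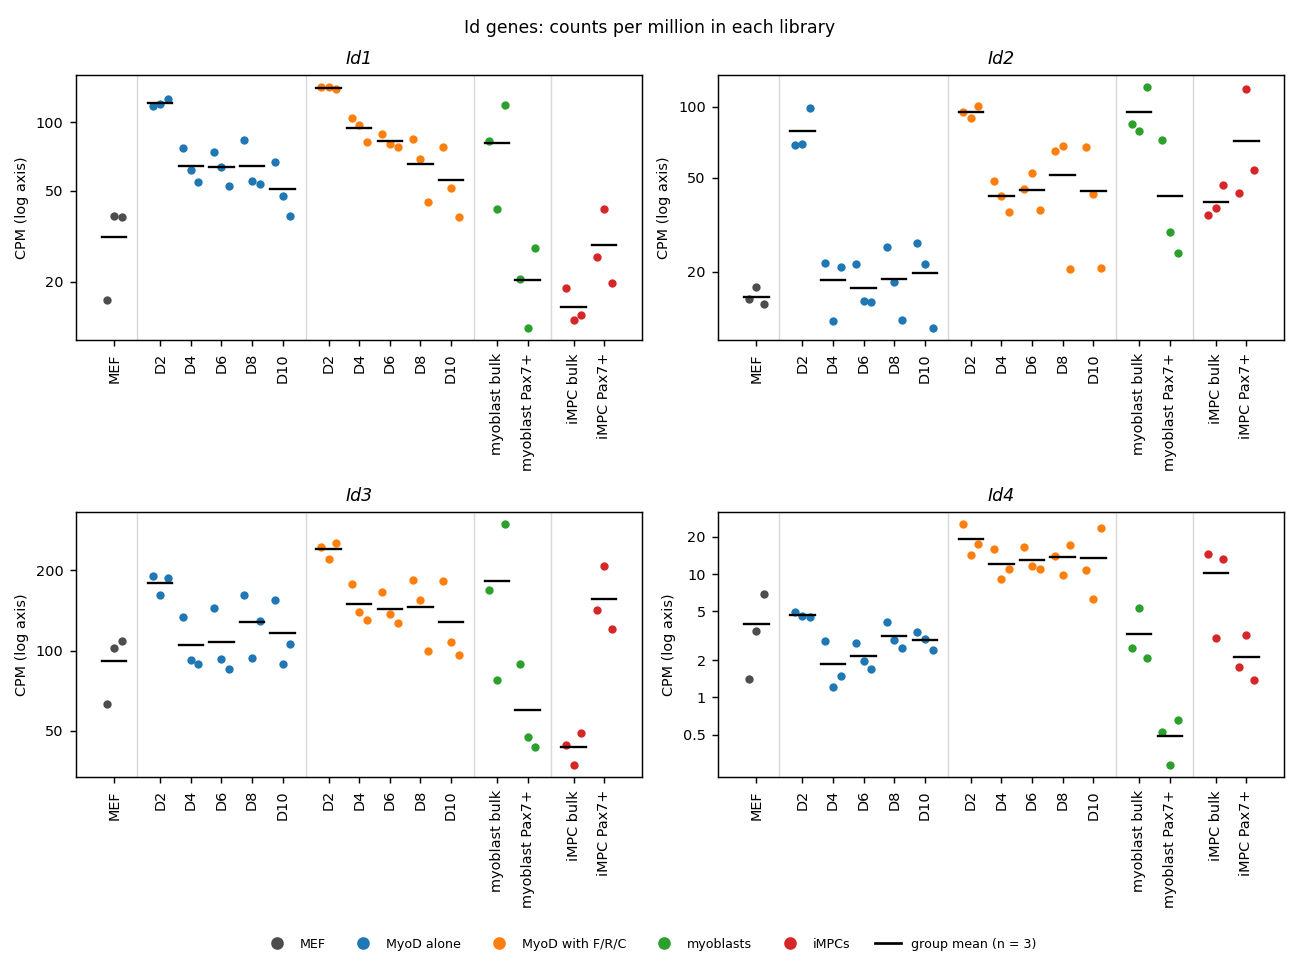
CPM of Id1, Id2, Id3 and Id4 (log axes) in each of the 45 libraries, by group and, in the induced cells, day of doxycycline (D2 to D10); points are libraries and lines are means of 3. Id1 was highest on day 2 of both treatments, and Id4 with F/R/C (6.23 to 25.6 CPM) lay above Id4 with MyoD alone (1.22 to 4.91 CPM).

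None of the 3 E protein genes was called in the 4 comparisons of induced cells with MEFs. Tcf12 was 159, 195 and 179 CPM in MEFs, 169, 209 and 246 CPM on day 2 of MyoD alone, 133, 116 and 143 CPM on day 10 of MyoD alone and 223, 239 and 202 CPM under F/R/C on day 10. Tcf4 was 247, 156 and 135, 104, 112 and 131, 101, 83.3 and 136 and 188, 206 and 197 CPM in the same groups. On day 10 both genes were lower with MyoD alone than with F/R/C in every library. Tcf4 on day 2 of MyoD alone was below the MEF range, by -0.63 ± 0.22, adjusted p = 0.0225, which is under the fold threshold.

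The average log2 difference of F/R/C from MyoD alone over the 5 days was 0.86 ± 0.10, adjusted p = 5.48e-09, for Tcf4, 0.61 ± 0.06, adjusted p = 4.08e-10, for Tcf12 and 0.40 ± 0.13, adjusted p = 0.0074, for Tcf3, all under the fold threshold of 1. Tcf4 was called on day 8 only (171, 194 and 204 CPM under F/R/C, 97.3, 84.4 and 99.6 CPM without; 1.02 ± 0.22, adjusted p = 0.000723), and without replicate 2 of MyoD alone that value was 0.98. Tcf4 libraries with F/R/C were above those with MyoD alone on each of the 5 days. Tcf12 differed by 0.24 ± 0.14 on day 2 and 0.84 ± 0.14 on day 8, and its ranges did not overlap on days 4 to 10. Tcf3 was 90.3, 83.3 and 112 CPM with MyoD alone and 92.5, 93.7 and 123 CPM with F/R/C on day 2, and 85.6, 49.4 and 85.9 CPM against 162, 149 and 102 CPM on day 10, where the difference was 0.90 ± 0.29, adjusted p = 0.0132. On day 4 the Tcf3 difference was -0.02, with a 95% interval from -0.58 to 0.54. The change of the Tcf3 difference from day 2 to day 10 had a 95% interval from -0.01 to 1.58. The proliferation markers given above were also higher with F/R/C on days 4 to 10; their part in the E protein differences was not tested.

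By mean CPM, sorted Pax7+ iMPCs had the highest Tcf3 and Tcf4 of the 15 groups, and the highest Tcf12 after sorted myoblasts. Their Tcf4 was 405, 443 and 413 CPM, clear of bulk iMPCs at 262, 216 and 318 CPM, of sorted myoblasts at 151, 174 and 162 CPM and of bulk myoblasts at 117, 200.2 and 84.3 CPM. The log2 difference from sorted myoblasts was 1.37 ± 0.22, adjusted p = 6.63e-06, and that from bulk iMPCs, 0.66 ± 0.22, adjusted p = 0.0121, was under the fold threshold. Their Tcf3 was 220.1, 199 and 239 CPM, against 118, 80.1 and 84.4 CPM in sorted myoblasts (1.22 ± 0.29, adjusted p = 0.000885). Per length, Tcf3 did not stand out in sorted iMPCs, at 107 ± 8.71 TPM (SD, n = 3). It was 106 ± 28.9 TPM on day 10 with F/R/C and 99.1 ± 23.1 TPM in MEFs. Bulk iMPCs had the lowest Tcf3 of all groups, 43.1, 40.8 and 53.3 CPM, with a log2 fold change of -1.59 ± 0.29 against day 10 with F/R/C. Sorted iMPCs were higher than bulk iMPCs by a log2 fold change of 2.26 ± 0.30.

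Tcf3 in bulk myoblasts was 102, 49.2 and 191 CPM, a wider spread than in any other group. The call of less Tcf3 in bulk iMPCs than in bulk myoblasts (-1.32 ± 0.29, adjusted p = 0.000812) was lost without replicate 3 of the myoblasts (-0.72, adjusted p = 0.0447) and with only the groups compared (adjusted p = 0.117). Tcf12 was similar in sorted iMPCs (301, 271 and 307 CPM) and sorted myoblasts (317, 258 and 343 CPM), with a 95% interval of the log2 difference from -0.33 to 0.20. Sorted iMPCs also had a summed level of 10 proliferation markers of 2009 to 2474 CPM, against 523 to 1038 CPM in sorted myoblasts and 621 to 1347 CPM in bulk iMPCs; its part in these differences was not tested. Some reads of Tcf4, Tcf12 and Bhlhe41 were divided with other genes in most libraries, since their sums were whole, within 0.01 reads, in only 2, 1 and 7 of the 45 libraries; those of Hes6 were whole in 39 and those of the other 6 genes in all 45.

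**Figure D2:**
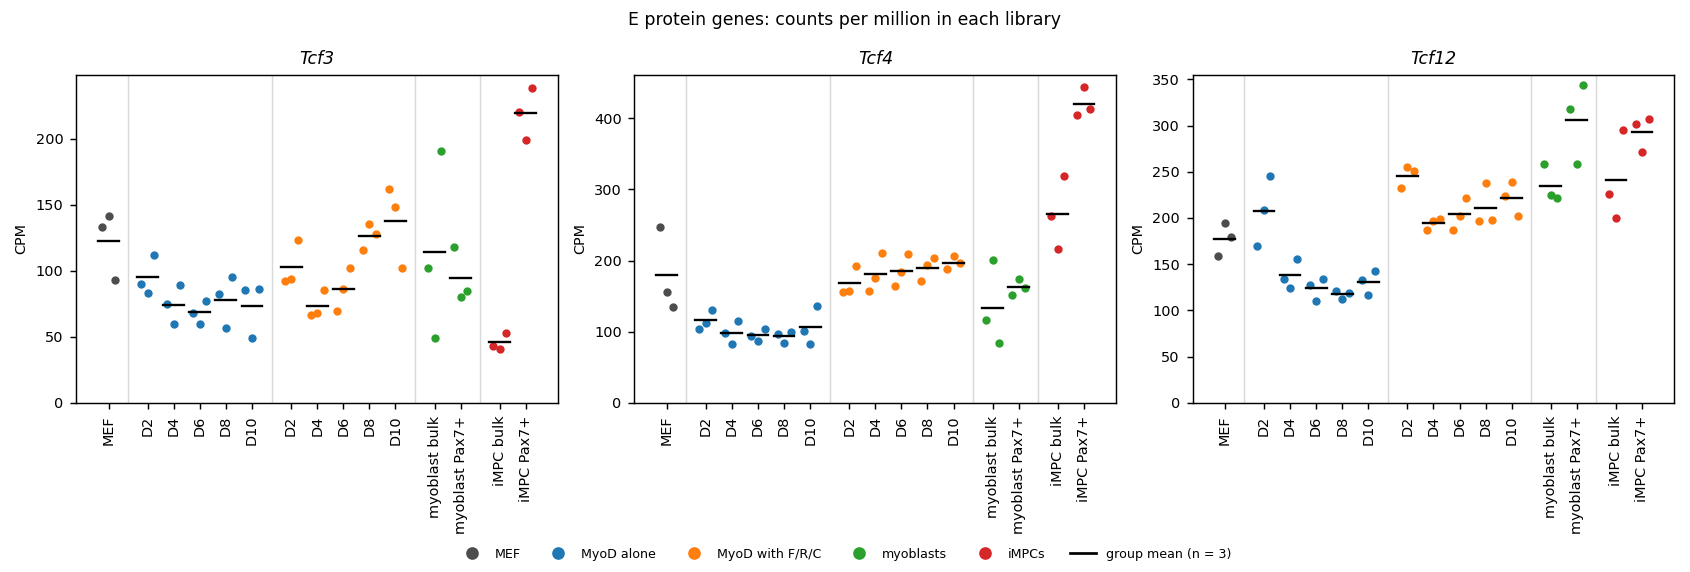
CPM of Tcf3, Tcf4 and Tcf12 (linear axes from 0) in each of the 45 libraries, by group and day of doxycycline; points are libraries and lines are means of 3. Sorted Pax7+ iMPCs had the highest Tcf4, 405 to 443 CPM, and Tcf4 with F/R/C (155 to 210.3 CPM) exceeded Tcf4 with MyoD alone (83.3 to 136 CPM) on each day.

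Tcf3 makes its forms E12 and E47 through a choice between a pair of exons that encode the basic region and helix-loop-helix. They are printed to show how alike they are: 175 of 227 aligned bases (77.1%) were identical, and capitals mark the bases that differ. Both are coding-strand sequence of GENCODE transcripts on the minus strand of GRCm38, the E12 exon of 236 bases at chr10:80412827-80413062 and the E47 exon of 227 bases at chr10:80410398-80410624.
E12 exon: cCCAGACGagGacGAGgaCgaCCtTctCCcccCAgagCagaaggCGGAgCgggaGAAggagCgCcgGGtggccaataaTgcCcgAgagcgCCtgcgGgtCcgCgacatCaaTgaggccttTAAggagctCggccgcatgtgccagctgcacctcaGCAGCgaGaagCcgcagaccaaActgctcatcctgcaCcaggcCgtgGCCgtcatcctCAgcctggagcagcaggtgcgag
E47 exon: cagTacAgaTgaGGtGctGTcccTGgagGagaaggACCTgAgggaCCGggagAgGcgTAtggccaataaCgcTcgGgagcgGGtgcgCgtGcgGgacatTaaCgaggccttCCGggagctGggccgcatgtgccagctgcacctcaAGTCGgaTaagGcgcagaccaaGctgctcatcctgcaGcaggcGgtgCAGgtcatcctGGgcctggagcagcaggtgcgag

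Transcripts with the E12 exon held 23.4% ± 2.0 (SD, n = 3) of the Tcf3 reads in MEFs, 27.1% ± 3.8 on day 10 of MyoD alone and 28.5% ± 2.8 on day 10 with F/R/C. The share was 22.8% ± 5.3 in bulk iMPCs, 31.6% ± 2.8 in sorted iMPCs, 28.5% ± 1.0 in bulk myoblasts and 34.7% ± 3.7 in sorted myoblasts. The highest E12 shares were in the sorted cells, whose libraries also differed in the effective length setting; its part was not tested.

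Msc separated the treatments more than any of the other 9 genes. It lies on chromosome 1 (14753346 to 14755992, minus strand) and encodes a bHLH repressor that pairs with E proteins on E-boxes. It was nearly silent in MEFs, with 2 reads over 3 libraries, and stayed at or below 0.414 CPM in all 15 libraries of MyoD alone. With F/R/C it was 0.134, 0 and 0.184 CPM on day 2, 0.400, 1.58 and 0.666 CPM on day 4, 0.964, 7.57 and 8.92 CPM on day 6, 8.59, 26.3 and 31.8 CPM on day 8 and 27.9, 65.4 and 32.9 CPM on day 10. The ranges of the treatments overlapped on days 2 and 4 and were apart on days 6, 8 and 10, with log2 differences of 5.35 ± 1.07, adjusted p = 0.000486, on day 6, 7.18 ± 1.09, adjusted p = 1.65e-05, on day 8 and 8.19 ± 1.11, adjusted p = 2.07e-06, on day 10 (8.82 without replicate 3 of MyoD alone). Pooled over replicates, day 10 with F/R/C had 283-fold (95% interval 154 to 592, 2976 reads against 10) more than day 10 of MyoD alone per M reads, an interval that covers counting error only.

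The effect of F/R/C on Msc was larger on day 10 than on day 2 by 8.63 ± 2.01, adjusted p = 0.0102. Without replicate 3 of day 2 of MyoD alone, which held the most Msc reads of that group, the change was 7.88 with an adjusted p of 0.135; it was 9.23 without replicate 3 of day 2 with F/R/C and 9.25 without replicate 3 of day 10 of MyoD alone. Fitted folds of so few reads depend on the prior count; by reads, day 10 with F/R/C was 376-fold (95% interval 182 to 936, 2976 reads against 7) its day 2 level and 1207-fold (95% interval 334 to 9972, 2976 reads against 2) the MEF level. Pax7 with F/R/C ran from 0.211 to 1.19 CPM on day 4 to 47.1 to 75.7 CPM on day 10 and was at most 4 reads in each library of MyoD alone; the part of Pax7-expressing cells in the Msc level was not tested.

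Msc also had the largest log2 difference of the 10 genes between iMPCs and myoblasts, both sorted and in bulk. Sorted iMPCs had 39.9, 56.1 and 211 CPM, with replicate 3 the highest, while sorted myoblasts had 0.0353, 0.353 and 0.544 CPM. The log2 difference was 8.42 ± 1.07, adjusted p = 1.84e-07, and by reads the level was 340-fold (95% interval 222 to 549.7, 6391 reads against 21). The log2 difference was 7.37 without replicate 3 of the sorted iMPCs, 9.01 without replicate 3 of the sorted myoblasts and 7.76 with transcript length offsets. Bulk iMPCs had 5.26, 2.90 and 25.4 CPM and bulk myoblasts 0.224, 0 and 0.0728 CPM (6.99 ± 1.11, adjusted p = 1.72e-05). This value was 5.54 without replicate 3 of the bulk iMPCs, and 8.30 and 6.26 without replicates 1 and 2 of the bulk myoblasts; the call held in each. Both myoblast groups expressed Pax7 (349 to 813 CPM) in or above the range of sorted iMPCs (263 to 351 CPM). In the order of group means, all 14 neighbouring pairs overlapped, although the highest mean was 102 ± 94.5 CPM and the lowest 0.0358 ± 0.0325 CPM.

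Bhlhe41 (chromosome 6), a repressor of the same orange-domain bHLH class as Bhlhe40, went the other way. Its promoter window is shown because it held 4 E-boxes, marked in capitals: CAGGTG at positions -239 and -225, CACGTG, the form this class is known to bind, at -153, and CAACTG at position 8. The window is on the minus strand of GRCm38.p6 at chr6:145865371-145865670, and 17.6% of RefSeq windows held 3 or more CANNTG, 20.2% a CAGGTG on either strand and 7.15% a CACGTG.
Bhlhe41 promoter: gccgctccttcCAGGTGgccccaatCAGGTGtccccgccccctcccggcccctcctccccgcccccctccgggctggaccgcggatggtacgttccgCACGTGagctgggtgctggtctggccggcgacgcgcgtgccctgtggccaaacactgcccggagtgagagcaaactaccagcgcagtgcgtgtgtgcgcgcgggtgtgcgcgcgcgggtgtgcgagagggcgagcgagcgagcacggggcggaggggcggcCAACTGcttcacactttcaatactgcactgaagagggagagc

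Bhlhe41 was 1.80, 3.67 and 3.68 CPM in MEFs and 16.1, 28.1 and 22.2 CPM on day 2 of MyoD alone, against 6.30, 9.85 and 6.86 CPM under F/R/C on day 2. It rose with MyoD in both treatments, by 2.86 ± 0.42, adjusted p = 3.22e-06, and 1.33 ± 0.41, adjusted p = 0.0117; the second call was lost without replicate 1 of the MEFs (adjusted p = 0.0713) or replicate 2 with F/R/C (adjusted p = 0.0613). On each of the 5 days all libraries with F/R/C were below all with MyoD alone. The log2 difference was -1.53 ± 0.40, adjusted p = 0.0135, on day 2, -1.82 ± 0.41, adjusted p = 0.000708, on day 10 and -1.32 ± 0.18, adjusted p = 1.23e-07, over the 5 days; on day 4 it was -0.67 ± 0.39, adjusted p = 0.227, and not called. The day 2 call was lost without replicate 2 of MyoD alone or replicate 1 or 3 with F/R/C (adjusted p up to 0.0792), and the day 6 call without replicate 2 of MyoD alone or replicate 2 or 3 with F/R/C (adjusted p up to 0.0676). The day 8 call was lost without replicate 2 with F/R/C (adjusted p = 0.0646) and with transcript length offsets (-0.73, adjusted p = 0.121). By day 10 with F/R/C, at 2.70, 2.04 and 5.47 CPM, Bhlhe41 overlapped the MEF range.

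Myoblasts had the highest Bhlhe41, 33.3, 61.4 and 62.2 CPM when sorted and 48.8, 47.1 and 25.01 CPM in bulk. Bulk iMPCs had 24.6, 22.4 and 30.5 CPM and sorted iMPCs 7.37, 4.85 and 1.50 CPM. Sorted iMPCs were below sorted myoblasts by a log2 fold change of -3.51 ± 0.43, adjusted p = 9.65e-08, and below bulk iMPCs by one of -2.49 ± 0.41, adjusted p = 1.2e-05. Bulk iMPCs were above day 10 with F/R/C in every library (2.91 ± 0.42, adjusted p = 1.56e-05). Over the 15 group means of log2 CPM, Bhlhe41 and Msc had a Pearson r of -0.49 and Bhlhe41 and Tcf3 one of -0.64; these points share the induced cells' origin and their scaling, and no test was made.

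Hes6 (chromosome 1) had the largest rise against MEFs of the 10 genes with MyoD alone. Its promoter window is shown for its 3 E-boxes, marked in capitals: CACCTG (the reverse complement of CAGGTG) at -220, CAGCTG at -171 and CAACTG at -164, none overlapping another. The window is on the minus strand of GRCm38.p6 at chr1:91413989-91414288.
Hes6 promoter: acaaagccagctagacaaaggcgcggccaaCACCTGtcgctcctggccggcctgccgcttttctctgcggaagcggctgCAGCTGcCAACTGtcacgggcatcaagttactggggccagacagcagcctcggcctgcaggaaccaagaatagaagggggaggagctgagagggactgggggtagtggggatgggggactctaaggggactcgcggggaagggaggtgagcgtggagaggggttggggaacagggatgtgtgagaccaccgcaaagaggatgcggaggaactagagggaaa

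A second RefSeq start of Hes6 had CAGCTG at -150. Of the members' other windows, those of Tcf12 and Tcf3 held CANNTG as well. These matches describe the letters of the windows and not binding. Hes6 was 12.97, 11.6 and 13.00 CPM in MEFs, 685, 1008 and 697 CPM on day 2 of MyoD alone and 473, 745 and 363 CPM under F/R/C on day 2. The log2 fold changes were 5.99 ± 0.54, adjusted p = 3.55e-10, and 5.39 ± 0.52, adjusted p = 2.27e-09. All induced libraries, from 88.2 to 1008 CPM, were far above the MEFs.

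Hes6 then fell to 179.9, 369 and 88.2 CPM on day 10 of MyoD alone and 165, 247 and 134 CPM with F/R/C, by -1.91 ± 0.45, adjusted p = 0.0046, and -1.54 ± 0.44, adjusted p = 0.0097. The fall with F/R/C was not called without replicate 2 of day 2 (adjusted p = 0.0937) or replicate 3 of day 10 (adjusted p = 0.0761). The fall with MyoD alone was not called with only the groups compared (adjusted p = 0.0707) and was -2.57 without replicate 2 of day 10. F/R/C made no called difference on any day, and the average log2 difference had a 95% interval from -0.68 to 0.07. Replicate 2 of MyoD alone was the highest of its group in Hes6 on all 5 days, and it was also the highest in Myod1 (for example 2199.8, 5184 and 2487 CPM on day 4). Over the 15 group means of log2 CPM, Hes6 had a Pearson r of 0.92 with Myod1 and 0.83 with Myog, as a description. Among the references, bulk myoblasts had 504, 265 and 136 CPM, sorted myoblasts 129.8, 85.4 and 179 CPM, bulk iMPCs 101, 143 and 81.5 CPM and sorted iMPCs 56.7, 37.7 and 43.5 CPM. The sorted iMPCs were lower than sorted myoblasts without overlap (-1.51 ± 0.44, adjusted p = 0.0053) and lower than bulk iMPCs (-1.24 ± 0.44, adjusted p = 0.0196), the latter call being lost without any 1 of 3 of the 6 libraries. The lower Hes6 of bulk iMPCs than of bulk myoblasts (-1.48) was lost without replicate 1 of the myoblasts (-0.89, adjusted p = 0.141), without replicate 3 of the iMPCs and with only the groups compared. The summed level of 10 differentiated-muscle markers was 1157 to 1708 CPM in sorted iMPCs, 3939 to 13992 CPM in sorted myoblasts and 21444 to 27754 CPM in bulk iMPCs; its part in the Hes6 difference was not tested.

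**Figure D3:**
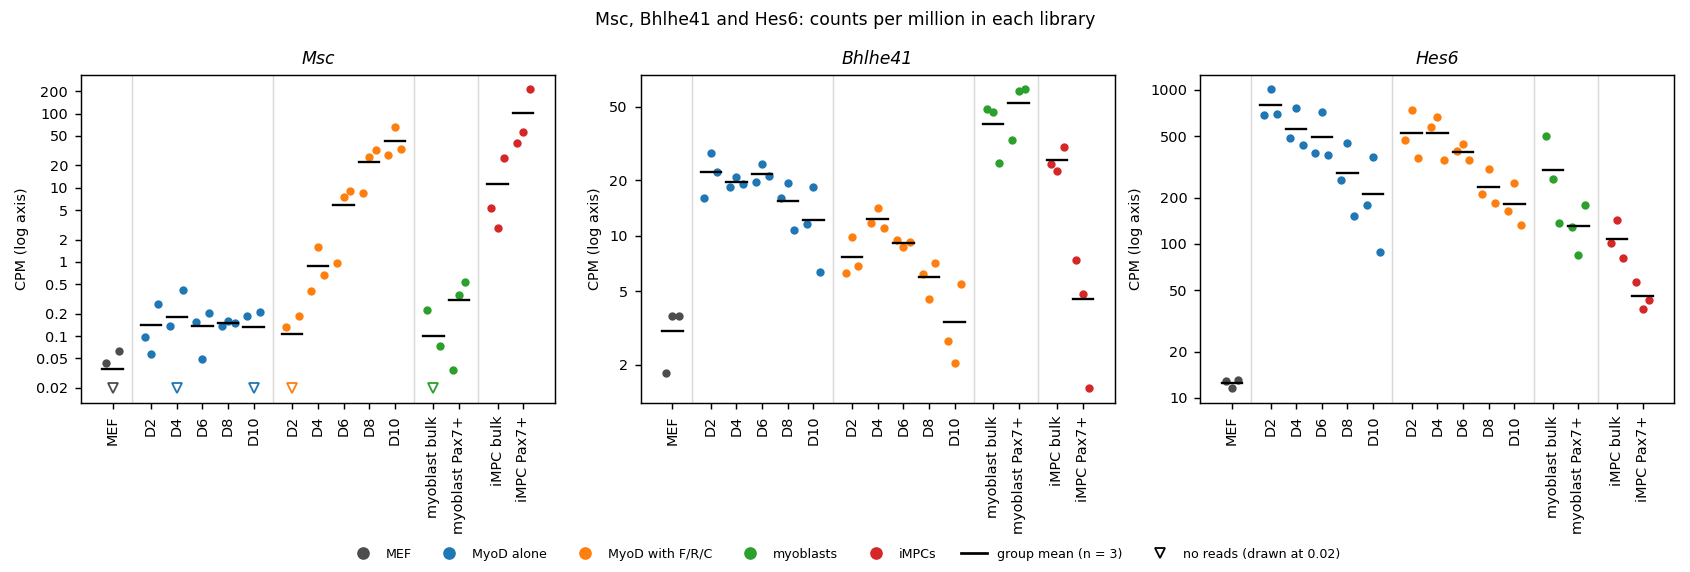
CPM of Msc, Bhlhe41 and Hes6 (log axes) in each of the 45 libraries, by group and day of doxycycline; points are libraries, lines are means of 3, and open triangles at 0.02 are libraries without a read. Msc with F/R/C went from at most 0.184 CPM on day 2 to 27.9 to 65.4 CPM on day 10, and Hes6 in the induced cells lay above the MEFs' 11.6 to 13.00 CPM.

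**Figure D4:**
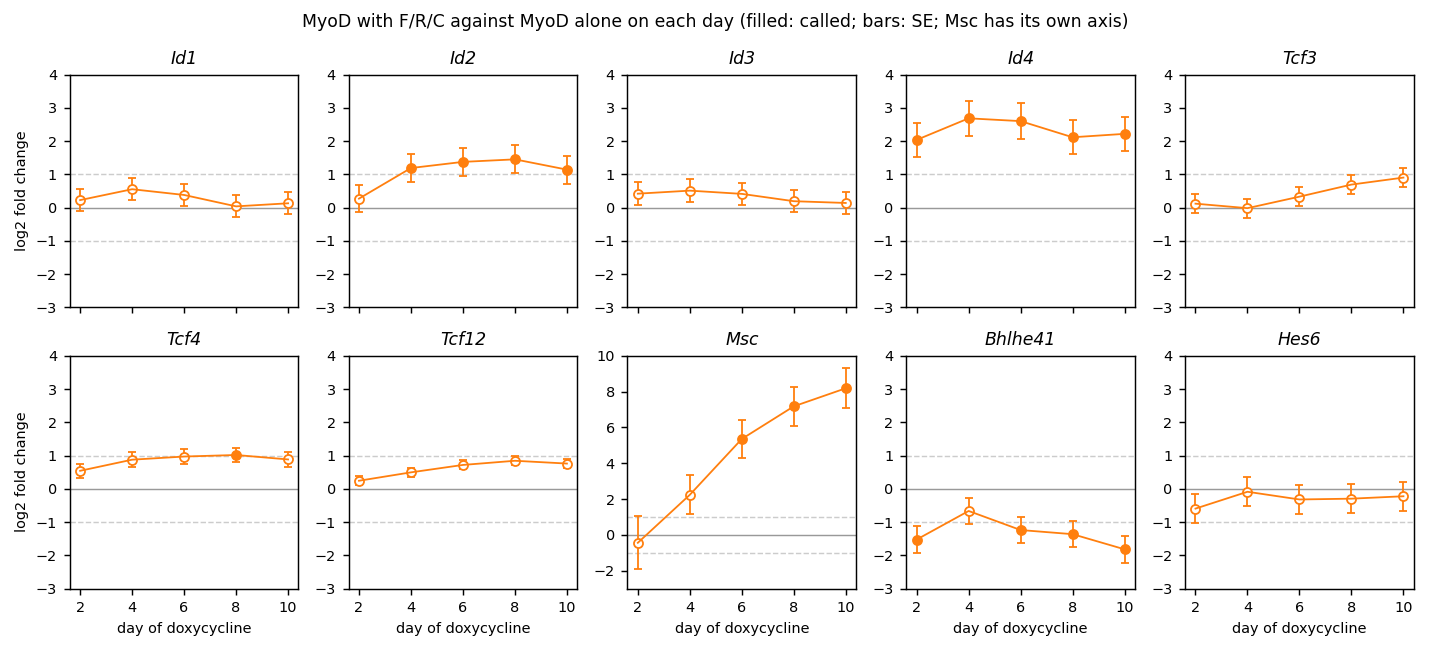
Log2 fold change of MyoD with F/R/C against MyoD alone for each of the 10 genes on days 2, 4, 6, 8 and 10; bars are SE, filled points are called, dashed lines mark the fold threshold and Msc has its own axis. Id4 was called on each day, Bhlhe41 on 4 of 5 days, and Msc went from -0.45 on day 2 to 8.19 on day 10.

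Levels per transcript length (TPM) allow the Id and E protein transcripts to be set against each other. The summed TPM of Id1 to Id4 was 253 ± 61.6 (SD, n = 3) in MEFs, 607 ± 52.96 on day 2 of MyoD alone and 806 ± 75.4 on day 2 with F/R/C. That of Tcf3, Tcf4 and Tcf12 was 269.5 ± 49.6, 203 ± 36.6 and 269 ± 27.97. The ratio of the Id sum to the E protein sum was therefore 0.575, 1.03 and 1.36 in the 3 MEF libraries, 3.38, 3.06 and 2.64 on day 2 of MyoD alone and 3.23, 2.97 and 2.82 on day 2 with F/R/C. All 6 day 2 libraries had a higher ratio than the MEFs, and the 2 treatments overlapped.

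On day 10 the ratio was 2.48, 2.13 and 1.42 with MyoD alone and 1.77, 1.12 and 1.10 with F/R/C, with overlapping ranges. Sorted iMPCs (0.654, 1.23 and 0.570), bulk iMPCs (0.787, 0.782 and 0.664) and sorted myoblasts (0.875, 0.486 and 0.474) had the lowest mean ratios, in ranges that overlapped that of the MEFs, and bulk myoblasts (2.25, 1.57 and 3.22) overlapped the induced cells. The E protein sum was highest in sorted iMPCs, 439 ± 10.2 TPM, above every library of the other 14 groups. The ratio of summed TPM of the MyoD family (Myod1, Myf5, Myog and Myf6) to the E protein sum was 32.7 ± 17.8 on day 4 of MyoD alone, 11.03 ± 2.41 on day 4 with F/R/C and 0.867 ± 0.219 in sorted iMPCs, whose 3 libraries lay at 0.617, 0.954 and 1.03. Bulk iMPCs had a ratio of 4.45 ± 0.299, sorted myoblasts 4.58 ± 1.83, bulk myoblasts 6.12 ± 2.79 and MEFs 0.0233 ± 0.0331. These are ratios of transcripts, not of proteins, and the Myod1 part includes the transgene.

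Within the E protein sum, Tcf12 had the largest share in sorted myoblasts, 64.3 ± 3.74% (SD, n = 3), against 39.2 ± 1.93% in sorted iMPCs and 32.7 ± 6.08% in MEFs. Tcf4 made up 36.4 ± 3.36% in sorted iMPCs and 19.8 ± 4.52% in sorted myoblasts, and the 3 libraries of these groups did not overlap. Tcf3 made up 14.1 ± 0.641% in bulk iMPCs and 35.7 ± 5.25% on day 10 with F/R/C. Shares of sorted against unsorted cells carry the same limit. Mean CPM of Tcf3, Tcf4 and Tcf12 was 123, 179 and 178 in MEFs and 219, 420 and 293 in sorted iMPCs. By CPM, the share of Tcf12 was therefore not larger in sorted iMPCs than in MEFs.

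**Figure D5:**
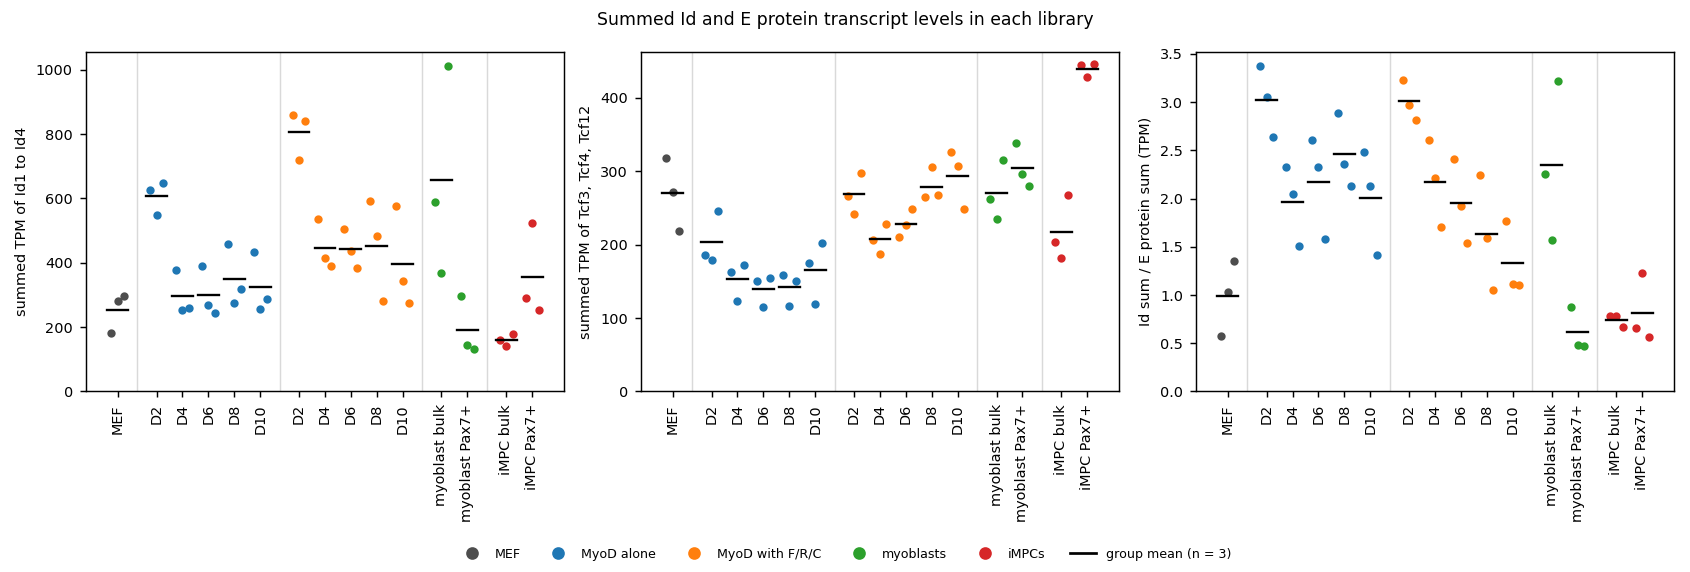
Summed TPM of Id1 to Id4 (left), of Tcf3, Tcf4 and Tcf12 (middle) and their ratio (right) in each of the 45 libraries, by group and day of doxycycline; points are libraries and lines are means of 3, on linear axes from 0. The ratio was 0.987 ± 0.393 in MEFs and 3.02 ± 0.372 on day 2 of MyoD alone, and the E protein sum was highest in sorted iMPCs.

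Other genes of the network were read from lists of 4 MyoD-family genes, 9 further bHLH repressors and antagonists, 8 antagonists and E-protein corepressors outside the bHLH class, and 8 BMP and Smad feedback or target genes; 8 of the 9 bHLH repressors passed the filter. Over the 5 days, 1 MyoD-family gene was higher with F/R/C and 1 lower: Myf6, a late member of the family, was higher (6.72 ± 0.48; 1.01 to 54.5 CPM against 0 to 2.13 CPM in 15 libraries each) and Myod1 lower (-1.09 ± 0.25). Of the bHLH repressors, the Notch targets Hey1 (3.11 ± 0.25) and Heyl (2.62 ± 0.29) were higher with F/R/C and Bhlhe40, the close relative of Bhlhe41, lower (-1.79 ± 0.29), with a list median of -0.43. None of the 8 non-bHLH antagonists was higher, and Mdfi, which holds MyoD in the cytoplasm, and Mdfic were lower (Mdfi -2.70 ± 0.32). Among the 8 BMP and Smad genes, Smad7, a feedback inhibitor of TGF-beta signalling, was lower (-2.48 ± 0.23; 3.94 to 31.2 CPM against 50.2 to 117 CPM), as was Msx2, and none was higher. The median over all genes tested was -0.03, and over the BMP and Smad list -0.80. Over the 5 days 22.1% of all genes were called. The 2 of 8 called in the non-bHLH list, and in the BMP and Smad list, are close to that share.

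On day 2 of MyoD alone against MEFs, 4 of the 8 BMP and Smad genes were higher (Smad6, Smad9, Atoh8 and Nog) and 1 lower (Bambi), where 22.4% of all genes were called. Smad6, Smad9, Atoh8 and Nog were also higher and Bambi lower on day 2 with F/R/C, a comparison with the same MEF libraries. On day 2 of MyoD alone, 4 of the 8 bHLH repressors tested were higher than in MEFs (Hes1, Hey1, Hey2 and Heyl) and 1 lower (Twist2). With F/R/C on day 2, 3 were higher (Hey1, Hey2 and Heyl) and 1 lower (Bhlhe40), where 20.4% of all genes were called. Bulk iMPCs against bulk myoblasts had 5 of 8 bHLH repressors higher, led by Twist2 (4.96 ± 1.09), Twist1 (4.87 ± 0.91) and Hey1 (4.22 ± 0.59), and 5 of 8 BMP and Smad genes lower, led by Smad9 (-2.63 ± 0.54) and Msx2 (-2.22 ± 0.70), where 19.6% of all genes were called. With only these groups in the fit, 1265 in place of 3396 genes were called in all. Twist1 and Twist2 are mesenchymal bHLH factors, and the summed level of 10 fibroblast markers was 2124 to 3738 CPM in bulk iMPCs and 340.0 to 591 CPM in bulk myoblasts; its part in these differences was not tested. Myod1 was lower in bulk iMPCs by a log2 fold change of -2.59 ± 0.60.

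Sorted iMPCs against sorted myoblasts had 3 of 8 bHLH repressors higher (Hey1, Hey2 and Heyl; Heyl 3.41 ± 0.66, 137 to 509 CPM against 26.4 to 40.6 CPM) and none lower, a share close to the 30% of all genes called in this comparison. Of the 8 BMP and Smad genes, 2 were higher and none was lower, also a share close to that of all genes. The higher ones were Nog, an extracellular BMP antagonist (4.01 ± 0.67), and Bambi, a pseudoreceptor that dampens TGF-beta family signalling. The MyoD family had 3 of 4 genes lower: Myod1 (-1.50 ± 0.57), Myog (-2.12 ± 0.77) and Myf5. Cbfa2t3, a corepressor that E proteins recruit, was lower as well (-2.26 ± 0.69), and Runx1t1 of the same corepressor family was higher.

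The genes whose pattern over the 15 group means was most like each member's were found by Pearson correlation of mean log2 CPM, among genes of at least 1 CPM on average. Msc was closest to Alpl (0.98) and St6galnac3 (0.97), Hes6 to Serinc2 (0.97) and Fbxl22 (0.97), and Bhlhe41 to Maml3 (0.95) and Mff (0.92). Id1 was closest to Tlnrd1 (0.97), Id2 to Trmt6 (0.96), Id3 to Senp3 (0.95) and Id4 to Itga4 (0.93). Tcf3 was closest to Lrwd1 (0.98), Tcf4 to Fuom (0.97) and Tcf12 to Bhlhb9 (0.96). Among the members themselves, Id1 and Id3 had the highest correlation (0.86), followed by Tcf4 and Msc (0.79), over the same 15 points.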

How the data were processed

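Poly-A RNA-seq was compared over 45 libraries in 15 groups of 3, grouped by their titles. Per the file headers, each deposited file lists every transcript with its length, effective length, estimated counts and TPM. The authors' estimated counts carry no normalisation and split reads that match more than 1 transcript; the deposited TPM values are per transcript length, with a fixed total. Per the submitters' processing notes, bcl2fastq 2.19, Trimmomatic 0.36, kallisto 0.44 and edgeR 3.28 were used with the build GRCm38.p6; the transcript release is not given in the sources used here. The difference of length and effective length, plus 1, had a median of 152.81 bases without sorting and of 180.03 bases in the 6 sorted libraries.

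Of 121843 transcripts, 121104 matched GENCODE M21, which held at least 99.4% of each library's reads. Estimated counts were summed per gene and rounded. All libraries were fitted in 1 model with edgeR 4.0.16 in R 4.3.3 (TMM, filterByExpr by group, quasi-likelihood F-test, 30 residual degrees of freedom, no replicate block), with Benjamini-Hochberg adjustment over the 17325 genes tested; the fit was tested on simulated data. SE were derived from each fold change and its F statistic, and 95% intervals are normal ones. Reads carry no molecular identifiers, so count intervals (exact) cover counting error only.

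The members, lists and comparisons were chosen with earlier results of these data known. The text names all 10 members, Myod1, Myog, the 3 most changed listed genes in each direction in 3 comparisons and the genes most like each member; other listed genes are named where a count is given. Promoter windows come from RefSeq on GRCm38.p6 and cover 7 of the 10 members (not Id1, Msc or Tcf4). The Tcf3 exons come from GENCODE M21, and the names E12 and E47 were assigned from the known sequences of the forms. Deviations of same-numbered libraries from their group means correlated above 0.1 in all 3 pairs for MyoD alone against F/R/C on days 2, 4 and 6 and for day 10 against day 2 of MyoD alone, so the numbers pair the libraries there; the replicate block did not change the number of members called there. Alternatives were DESeq2 1.42.0, other size factors, no filter, no minimum fold, transcript length offsets, only the groups compared, the replicate block and leaving out each library.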

Additional observations from a re-analysis of the deposited data

Results flagged for a closer look

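The effect of F/R/C on Msc differed between day 10 and day 2 by a test of the difference itself, with a log2 change of 8.63 (adjusted p = 0.0102, edgeR quasi-likelihood test). On day 2 the libraries with F/R/C and with MyoD alone overlapped, and on day 10 all 3 with F/R/C were higher. No other of the 10 genes had a called change of this effect. Without replicate 3 of day 2 of MyoD alone, the Msc call was lost (7.88, adjusted p = 0.135, same test). Groups of 3 libraries are too small to tell whether a single library is an outlier.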

How the results depend on the processing

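Of the 73 calls of a member in 18 comparisons, 59 held under all 7 alternatives of the fit, 50 under every leave-out of 1 library and 45 under both, and no value changed sign. Without a minimum fold, the members called were 4 (in place of 2) for day 10 of MyoD alone against MEFs. There 5088 of the 17325 genes tested were called. For F/R/C against MyoD alone, the members called were 4 (2) on day 4, 7 (4) on day 10 and 7 (4) over the 5 days. The calls over all genes rose as well, to 4023, 7108 and 10654. This threshold is what was dropped. Without the filter on low counts, 1 was called on day 4, and 3 in place of 5 for day 10 against day 2 with F/R/C, as with transcript length offsets (3) and with only the groups compared (3). Bulk iMPCs against bulk myoblasts had 4 in place of 7 with only the groups compared. Sorted against bulk myoblasts had 5 in place of 3 with DESeq2 and 5 with the replicate block (Id2 -1.29 and Hes6 -1.06 were added), and 0 in edgeR with only the groups compared, where 5 of 9 members tested had an unadjusted p under 0.05. The cause was not tested. The replicate block changed no other count of members called by over 1.5 times; same-numbered libraries were not paired in that comparison.

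Leaving out 1 library gave 0 to 2 members called for F/R/C against MyoD alone on day 2, 1 to 2 on day 4 and 2 to 5 on day 6. The range was 2 to 5 for day 10 against day 2 with F/R/C, 0 to 1 for the change of the F/R/C effect and 4 to 8 for bulk iMPCs against bulk myoblasts, the lowest without replicate 3 of the myoblasts. The 0 on day 2 came without replicate 2 of MyoD alone and the 0 for the change of the effect without replicate 3 of day 2 of MyoD alone; in each, 2 members had an unadjusted p under 0.05 in edgeR. With 3 libraries a group and few Msc reads outside F/R/C, differences below the called fold were not all detectable at this depth. Over all genes tested, only the groups compared moved the number called by over 1.5 times in 5 of 18 comparisons. Sorted against bulk myoblasts had 0 in place of 1080. Day 10 of MyoD alone against MEFs had 2019 in place of 3279, and F/R/C on day 2 had 1420 for 854. Bulk iMPCs against bulk myoblasts had 1265 for 3396, and sorted iMPCs against sorted myoblasts 3424 for 5199. Without a minimum fold the number called moved in 17, without the filter in 1 and with transcript length offsets in 1.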
